A study of Mus musculus with 36 samples.

Results

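Catecholamines from sympathetic nerves and the adrenal gland, acetylcholine from the vagus nerve, and neuregulin from the endocardium and vessel wall all act on heart muscle through receptors, and 9 genes of these systems were followed here in the mouse heart from mid-gestation to old age. They were chosen by name, as the adrenergic receptors Adrb1, Adra1a and Adra1b, the muscarinic receptor Chrm2, the adenylyl cyclases Adcy5 and Adcy6, the ligand Nrg1 and the receptors Erbb2 and Erbb4. Of the 9 genes, 8 had at least 1 probe set, a group of short probes summarised as 1 value, and together they had 12 of the 45101 probe sets of the array. Chrm2 was not analysed here.

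The hearts came from OF1 (Oncins France 1) mice without any treatment or engineered allele and were collected daily from E10.5 to E19.5, in young adults of 10 weeks and in old adults. The old animals were 10 months old in the methods of the study and 14 months in the GEO series text. Each of the 12 stages had 3 Affymetrix mouse genome arrays, which makes 36. The first pair of stages had mixed-sex arrays alone, while every stage from E12.5 had 1 female array, 1 male array and 1 array of both sexes, so variation between hearts of a stage cannot be told apart from sex. Values are log2 intensities, in which a difference of 1 is a doubling, and a stage mean above 5 served the study as its sign of expression.

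The beta-1 adrenergic receptor (Adrb1) couples through the stimulatory G protein to adenylyl cyclase, which makes cyclic AMP and so speeds and strengthens the heartbeat. Adcy5 and Adcy6 are the main cyclases of cardiomyocytes, and the M2 muscarinic receptor (Chrm2) opposes them through an inhibitory G protein, while the alpha-1 receptors Adra1a and Adra1b signal through Gq to phospholipase C. Neuregulin-1 (Nrg1), released by endocardial and endothelial cells, binds Erbb4 on cardiomyocytes, which pairs with Erbb2, a receptor that has no known ligand of its own. This pathway is required for the trabeculae, the muscular ridges of the embryonic ventricle.

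The labels describe RNA extraction from liver. None of 7 liver markers with a probe set (among them Alb, Afp and Apoa1) had a stage mean above 5, the highest being 4.13, whereas the cardiac troponin Tnnt2 stood at 12.4 at E10.5 and 12.5 in young adults. The hybridization controls, bacterial transcripts added at a fixed amount to every labelled sample, were not level over stages: their mean over 18 probe sets was 9.90 on E10.5 arrays, 10.9 on E14.5 arrays and 11.2 on E19.5 arrays, against 12.2 in young adults and 11.4 in old ones. Sample titles also change their prefix partway through E16.5, starting with its female array. Within a stage the prefix differs at E16.5 alone. As a covariate beside stage it therefore rests on that female array against the male and mixed arrays of E16.5. It cannot be told apart there from sex or from the spread of single arrays. Whether the control level or the prefix marks a batch is not stated. For the chosen genes, the values with each as a covariate stand beside the results that they change. Genes of the pathway lists and cell type markers below were not fitted with either. The highest correlation between 2 arrays was r = 0.996 over all probe sets.

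At least 1 probe set of 5 genes (Adrb1, Adra1a, Adcy5, Adcy6 and Erbb2) had a stage mean above 5, 6 probe sets in all. Adra1b, Nrg1 and Erbb4 stayed below it at every stage, as did the second probe set of Adra1a and 2 of the 4 probe sets of Adcy5. In limma's moderated F test over the 12 stages, with Benjamini-Hochberg adjustment over all probe sets, 11 of the 12 probe sets passed an adjusted p of 0.05, beside 68% of all probe sets. The exception was 1443080_at of Adcy5 (adjusted p = 0.163). The plot of values by stage shows these courses for each gene.

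**Figure D1:**
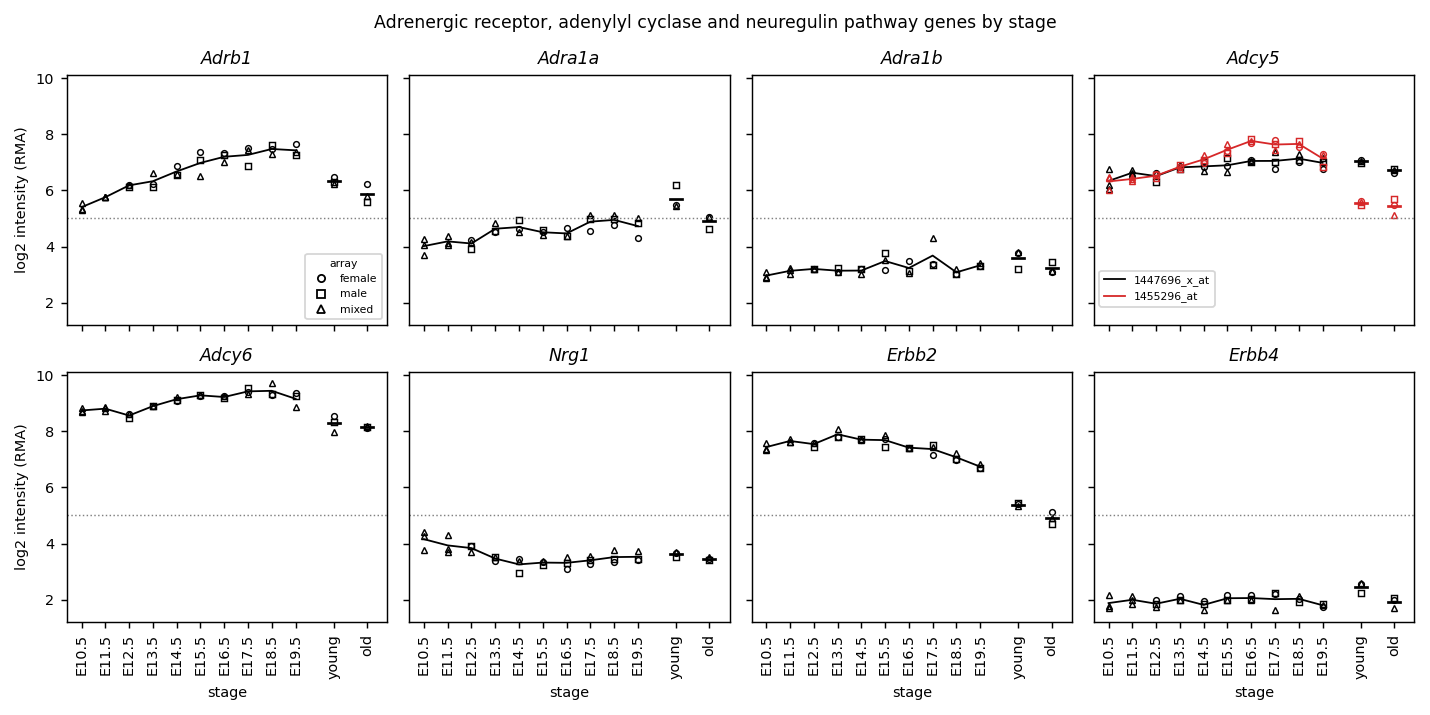
Log2 intensity (vertical axis) of the 8 measured genes at each stage (horizontal axis); symbols are single arrays by sex label, lines and bars the stage means, and the dotted line the level of 5. Means of Adrb1 climbed to E18.5 and those of the red Adcy5 probe set to E16.5, both lower in adults, Erbb2 was lowest in adults, and Adra1a was highest in young adults, while Adra1b, Nrg1 and Erbb4 stayed below 5.

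RefSeq's table of promoters (GRCm38.p6) had entries for 6 of the 9 genes. Windows of Adrb1, Adcy5 and Erbb2 are shown. Adrb1 (chr19:56721867-56722116, plus strand) and Adcy5 (chr16:35154614-35154863, plus strand) both rose from E10.5 to E14.5. Over stage means Adrb1 and the Adcy5 probe set 1447696_x_at correlated at r = 0.861. With the control level as a covariate the rise of that probe set was 0.09 (limma adjusted p = 0.835), while that of 1455296_at held in every alternative. From E19.5 to young adult Adrb1 changed by -1.10, and Adcy5 by 0.06 on 1447696_x_at and -1.58 on 1455296_at. Erbb2 (chr11:98412234-98412483, plus strand) fell from E14.5 to E19.5. Each run holds the first 250 bases of the table's window, 5′ to 3′. For Adrb1 and Erbb2 these end directly before the gene's annotated start, whereas the Adcy5 window lies inside the annotated gene, close to its 5′ end. Capitals mark the GC box GGGCGG on either strand.
Adrb1: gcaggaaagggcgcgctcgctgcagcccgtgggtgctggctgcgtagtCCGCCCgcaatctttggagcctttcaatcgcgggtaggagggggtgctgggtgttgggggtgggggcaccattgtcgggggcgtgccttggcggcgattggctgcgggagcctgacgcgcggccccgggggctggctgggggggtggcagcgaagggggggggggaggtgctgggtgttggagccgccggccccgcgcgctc
Adcy5: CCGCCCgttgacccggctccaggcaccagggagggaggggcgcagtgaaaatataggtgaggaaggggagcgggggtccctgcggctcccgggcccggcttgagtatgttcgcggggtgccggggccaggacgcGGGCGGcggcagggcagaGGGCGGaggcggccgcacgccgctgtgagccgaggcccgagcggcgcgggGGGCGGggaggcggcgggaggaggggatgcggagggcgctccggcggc
Erbb2: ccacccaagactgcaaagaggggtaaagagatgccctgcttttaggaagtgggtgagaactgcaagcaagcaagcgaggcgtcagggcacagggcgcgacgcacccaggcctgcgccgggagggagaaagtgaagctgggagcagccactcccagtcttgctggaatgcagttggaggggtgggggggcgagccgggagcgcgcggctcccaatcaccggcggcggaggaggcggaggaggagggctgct
The share of G and C was 74.0% in the Adrb1 window, 78.0% in that of Adcy5 and 66.0% in that of Erbb2, and the median over 32851 windows of this length was 52.4%. The GC box occurred 4 times in the Adcy5 window, 1 time before Adrb1 and 0 times before Erbb2, and 32.7% of all windows held at least 1. TGACG, the half-site of the cAMP response element, occurred 1 time before Adrb1 and 1 time before Erbb2, on opposite strands, and in 17.8% of all windows. GGAATG, a site of TEAD factors, occurred 1 time before Erbb2 and in 12.6% of all windows, and CCAAT occurred 1 time before Adrb1 and 1 time before Erbb2 (33.9% of all windows). Neither TATAAA nor the GATA sequence AGATAA occurred in these 3 windows on either strand, and none of the other motifs overlapped a GC box.

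Adrb1 (chromosome 19, 56722117 to 56725150; probe set 1423420_at) was the receptor with the widest course before birth. At E10.5 its 3 arrays read 5.56, 5.35 and 5.30, at E14.5 6.88 (female), 6.55 (male) and 6.6 (mixed), and at E19.5 7.65, 7.27 and 7.37. These groups did not overlap. Stage means were 5.40 ± 0.14 (SD, n = 3) at E10.5, 6.68 ± 0.18 at E14.5, 7.48 ± 0.16 at E18.5 (its highest) and 7.43 ± 0.20 at E19.5. Adrb1 rose 2.42-fold from E10.5 to E14.5 (log2 fold change 1.27, SE 0.19, limma adjusted p = 6.25e-06) and 1.69-fold from E14.5 to E19.5 (0.75, adjusted p = 0.00502). The second rise kept its direction but did not pass with the title prefix as a covariate (0.57, adjusted p = 0.576).

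After birth the course turned. Young adult arrays read 6.47 (female), 6.30 (male) and 6.21 (mixed), all below the E19.5 arrays, and old adult arrays read 6.24, 5.59 and 5.82. Adrb1 fell by 1.10 on the log2 scale from E19.5 to young adult (2.14-fold lower, adjusted p = 2.3e-05), and in every alternative it remained past the threshold, with values from -1.18 to -0.92. Young adult hearts were still 1.90-fold above E10.5 (0.93, adjusted p = 8.51e-05), a call lost with the title prefix (0.74, adjusted p = 0.0918) or the control level (0.79, adjusted p = 0.119) as a covariate. The old adult mean was 5.88 ± 0.33, a difference of -0.45 from young adult that did not pass (adjusted p = 0.139), with 1 old array inside the young range. Ordered by mean, Adrb1 levels ran from E18.5 through E19.5, E17.5, E16.5 and E15.5 to E14.5, then young adult, E13.5, E12.5, old adult, E11.5 and E10.5. Of the 11 neighbouring pairs in this order, 2 differed by more than the larger of their SDs: E14.5 from young adult, and E11.5 from E10.5.

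Adra1a (chromosome 14, 66635251 to 66771240; 1421659_at), the alpha-1A receptor, followed another course, with its highest level in young adults. E10.5 arrays read 3.71, 4.05 and 4.28, E19.5 arrays 4.31 (female), 4.84 (male) and 5.03 (mixed), young adult arrays 5.47, 6.18 and 5.44, and old adult arrays 5.05, 4.64 and 5.06. The young adult arrays lay above every other array of this probe set. From E19.5 to young adult Adra1a rose 1.96-fold (0.97, SE 0.20, adjusted p = 0.000288), and from young to old adult it fell by 0.78 (1.72-fold lower, adjusted p = 0.0143). From E10.5 to E14.5 it rose 1.60-fold (0.68, adjusted p = 0.0104).

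The hybridization control level moved with this gene. Within stages, over the 36 arrays, Pearson's r between them was 0.725, and this level was also highest in young adults. With it as a covariate the rise from E19.5 to young adult was 0.42 (adjusted p = 0.087), the rise from E10.5 to E14.5 was 0.11 (adjusted p = 0.822) and the fall with age was -0.34 (adjusted p = 0.267), so all 3 calls were lost. Young adult minus E10.5 went from 1.68 (adjusted p = 1.49e-08) to 0.45 (adjusted p = 0.307) with this covariate. The rise from E10.5 to E14.5 was also lost without the first E10.5 array (adjusted p = 0.0895) or the male E14.5 array (adjusted p = 0.0861). The fall with age was also lost without the young adult male array (-0.54, adjusted p = 0.12), without the old adult male array (-0.64, adjusted p = 0.0887) and when only the 6 adult arrays were fitted (adjusted p = 0.203). The second probe set, 1459351_at, ranged from 2.20 to 2.72 over stages and passed in none of the 5 stage comparisons. In the order of Adra1a levels young adult stood first, then E18.5, old adult, E17.5, E19.5, E14.5, E13.5, E15.5, E16.5, E11.5, E12.5 and E10.5. Young adult and E18.5 differed by more than the larger SD, as did E16.5 and E11.5, and the other 9 neighbouring pairs did not.

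Adra1b (chromosome 11, 43774605 to 43901250; 1422183_a_at), the alpha-1B receptor, had stage means between 2.96 at E10.5 and 3.68 at E17.5, where the mixed array read 4.31 and the female and male arrays 3.36 and 3.35. Of the stage comparisons, only young adult minus E10.5 passed (0.63, SE 0.19, adjusted p = 0.00482), at means of 3.59 and 2.96. That call was lost with the control level (0.22, adjusted p = 0.733), the title prefix (0.24, adjusted p = 0.6) or quantile renormalization (0.35, adjusted p = 0.115). Among neighbours in the order of its levels, 1 of 11 pairs (E18.5 and E10.5) differed by more than the larger SD.

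Adcy5 (chromosome 16, 35154494 to 35305743), one of the calcium-inhibited cyclases, was read by 4 probe sets, of which 1447696_x_at and 1455296_at had stage means above 5. Both rose from E10.5 to E14.5, the first 1.43-fold (0.52, SE 0.16, adjusted p = 0.015) and the second 1.73-fold (0.79, SE 0.15, adjusted p = 0.000137). The call of the first was lost with the control level as a covariate (0.09, adjusted p = 0.835), when only the stages compared were fitted (adjusted p = 0.0802), and without the first E10.5 array (0.45, adjusted p = 0.08), the second E10.5 array (0.38, adjusted p = 0.141) or the male E14.5 array (0.43, adjusted p = 0.0961). That of the second probe set held in every alternative, from 0.64 to 0.99. The second went on to 7.77 ± 0.07 at E16.5, where its arrays read 7.71 (female), 7.84 (male) and 7.75 (mixed), and the first stood at 7.05 ± 0.03 there.

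The 2 probe sets parted after birth. On 1455296_at the E19.5 arrays read 7.30, 6.84 and 7.28 and the young adult arrays 5.62 (female), 5.49 (male) and 5.58 (mixed), with no overlap. On 1447696_x_at the E19.5 arrays read 6.78, 7.02 and 7.16 and the young adult arrays 7.08, 6.96 and 7.07, which overlapped. From E19.5 to young adult the probe set 1455296_at fell by 1.58 (SE 0.15, 2.98-fold lower, adjusted p = 4.83e-10), while 1447696_x_at gave 0.06 (SE 0.16, 95% interval -0.27 to 0.38, adjusted p = 0.837). Taken within each array, the log2 difference of 1455296_at from 1447696_x_at averaged between -0.22 (E11.5) and 0.72 (E16.5) at embryonic stages, -1.48 ± 0.01 (SD, n = 3) in young and -1.28 ± 0.30 in old adults. Which transcripts or parts of the gene each probe set reads was not tested here, and on these arrays the suffix x marks probe sets some of whose probes match other sequences.

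For young adult against E10.5 the 2 probe sets passed in opposite directions, 0.70 on 1447696_x_at (adjusted p = 0.000398) and -0.76 on 1455296_at (adjusted p = 4.81e-05). Within stages the control level correlated with the first at r = 0.725 and with the second at r = -0.232. With that level as a covariate the first gave -0.24 (adjusted p = 0.555) and the second -0.50 (adjusted p = 0.223). Median centring here set each array on the median of its probe sets with a mean above 5 over all arrays. Under it the second gave -0.23 (adjusted p = 0.155). The fall of 1455296_at from E19.5 to young adult stayed past the threshold in every alternative, between -1.73 and -1.39. The other probe sets, 1439829_at and 1443080_at, had no stage mean above 3.42. Both passed as higher for young adult minus E10.5, at 0.74 (limma adjusted p = 0.000172) and 0.51 (adjusted p = 0.0149). Ordered by level, 1447696_x_at was highest at E18.5, E17.5, E16.5 and in young adults and lowest at E10.5, and 1 of 11 neighbouring pairs, E13.5 and old adult, differed by more than the larger SD.

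Adcy6 (chromosome 15, 98589978 to 98610287; 1418128_at) is its close relative in cardiomyocytes, and its stage means spanned 1.29. Arrays at E10.5 read 8.72, 8.69 and 8.82, at E14.5 9.09, 9.13 and 9.22, and at E19.5 9.36, 9.26 and 8.87. Young adult arrays read 8.55 (female), 8.33 (male) and 7.97 (mixed), and old adult arrays 8.13, 8.15 and 8.18. The 6 adult arrays lay below all arrays of E10.5 and E14.5 to E19.5. Adcy6 rose 1.32-fold from E10.5 to E14.5 (0.40, SE 0.13, adjusted p = 0.0231), a call lost with the control level as a covariate (0.35, adjusted p = 0.207) and without the first or second E10.5 array or the male or mixed E14.5 array (adjusted p 0.0581 to 0.0885). It fell by 0.88 from E19.5 to young adult (1.84-fold lower, adjusted p = 4.34e-06), and this call held in every alternative, from -1.02 to -0.69.

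Young adult minus E10.5 was -0.46 for Adcy6 (adjusted p = 0.00361), but 0.07 (adjusted p = 0.687) with each array centred on its median, so the direction of this difference depends on the scaling. Its call was also lost with either covariate, with quantile renormalization and without the young adult mixed array (-0.30, adjusted p = 0.0535). Centring moved every probe set by the same amount in a comparison, 0.53 for young adult minus E10.5, 0.20 for E14.5 minus E10.5, 0.18 for young adult minus E19.5, 0.14 for E19.5 minus E14.5 and -0.14 for old minus young adult. The Adcy6 order ran from E18.5, E17.5, E15.5, E16.5, E19.5 and E14.5 down to E13.5, E11.5, E10.5, E12.5, young and old adult, and 5 of 11 neighbouring pairs differed by more than the larger SD.

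**Figure D2:**
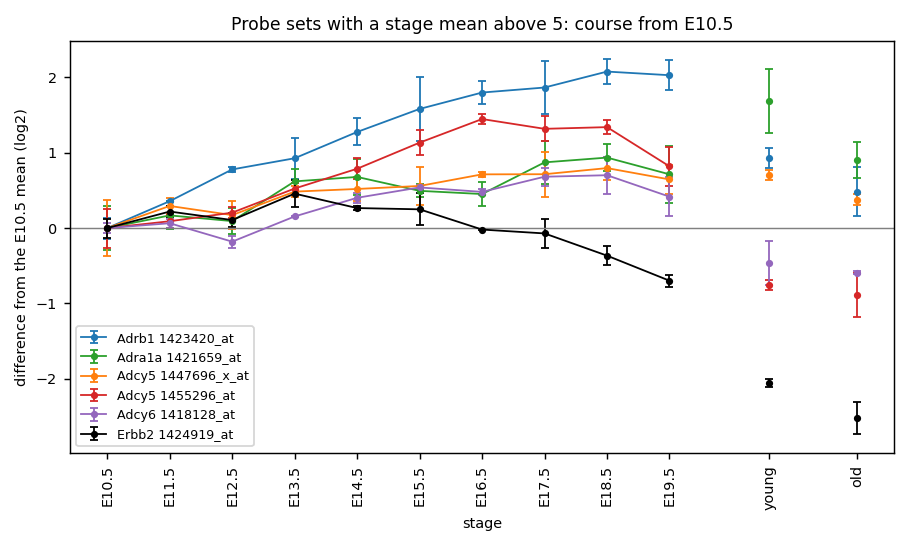
Difference of each stage mean from the E10.5 mean (vertical axis, log2) by stage (horizontal axis) for the 6 probe sets with a stage mean above 5; bars are SDs of 3 arrays. Before birth Adrb1 climbed furthest, reaching a mean of 7.48 at E18.5; in young adults Adra1a stood 1.68 above its E10.5 mean (0.45 with the control level as a covariate), Erbb2 2.05 below it, and the 2 probe sets of Adcy5 on opposite sides of it, though both below it (-0.24 and -0.50) with that covariate.

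Erbb2 (chromosome 11, 98412484 to 98437716; 1424919_at), the co-receptor for neuregulin, had the widest range of all 12 probe sets, from 7.90 ± 0.18 at E13.5 to 4.92 ± 0.21 in old adults. Its arrays read 7.35, 7.38 and 7.58 at E10.5, 7.69, 7.73 and 7.69 at E14.5, and 6.69 (female), 6.70 (male) and 6.83 (mixed) at E19.5. Young adult arrays read 5.39, 5.43 and 5.33, and old adult arrays 5.12, 4.71 and 4.92. All E19.5 arrays were below those of E14.5, all young adult arrays below those of E19.5 and all old adult arrays below those of young adults. Erbb2 fell by 0.96 from E14.5 to E19.5 (SE 0.13, 1.95-fold lower, adjusted p = 2.21e-06) and by 1.36 from E19.5 to young adult (2.56-fold lower, adjusted p = 5.88e-10).

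These 2 falls passed in every alternative, with values from -1.01 to -0.81 for the first and from -1.56 to -1.17 for the second. From E10.5 to young adult Erbb2 fell by 2.05 (SE 0.13, 4.15-fold lower, adjusted p = 8.16e-15), and the call at an adjusted p of 0.05 held in every alternative. The size lies near the 4-fold limit of the study, as -1.53 with median centring, -1.59 with quantile renormalization and -1.98 without the third E10.5 array. From young to old adult Erbb2 fell by 0.47 (1.38-fold lower, adjusted p = 0.0215). That last call was lost with the control level as a covariate (-0.31, adjusted p = 0.2), when only the arrays compared were fitted (adjusted p = 0.285), and without the male array of either adult stage or the old adult mixed array (adjusted p 0.0504 to 0.133). Within stages its r with the control level was 0.504.

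In the order of Erbb2 levels E13.5 came first, followed by E14.5, E15.5, E11.5, E12.5, E10.5, E16.5, E17.5, E18.5, E19.5, young adult and old adult. The last 4 steps, from E17.5 down to old adult, each exceeded the larger SD, as did E13.5 to E14.5 and E11.5 to E12.5. No other lead probe set had as many such steps (6 of 11).

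Nrg1 (chromosome 8, 31807452 to 32891609; 1456524_at), the ligand, stayed under 5 and was highest at E10.5. Its arrays read 3.76, 4.28 and 4.43 at E10.5 and 3.44 (female), 2.96 (male) and 3.37 (mixed) at E14.5, with no overlap. It fell by 0.90 between these stages (SE 0.17, 1.87-fold lower, adjusted p = 0.000125), a call that held in every alternative that could be run, from -1.10 to -0.70. Young adult minus E10.5 was -0.53 (adjusted p = 0.00699), and with median centring the difference was 0.00 (adjusted p = 0.995), so no direction is given for it. That call was also lost with the title prefix as a covariate (adjusted p = 0.585) and without the third E10.5 array (adjusted p = 0.0601). Only E12.5 and young adult differed by more than the larger SD among neighbours in its order, which began with E10.5, E11.5 and E12.5.

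Erbb4 (chromosome 1, 68031884 to 69108576; 1427783_at), the receptor that binds neuregulin on cardiomyocytes, had stage means from 1.80 at E19.5 to 2.46 in young adults. Young adult arrays read 2.54 (female), 2.23 (male) and 2.60 (mixed), against 1.75, 1.85 and 1.80 at E19.5 and 1.97, 2.05 and 1.71 in old adults, and the young group overlapped neither. It rose by 0.66 from E19.5 to young adult (SE 0.15, adjusted p = 9e-04) and fell by 0.55 from young to old adult (adjusted p = 0.0219). Young adult minus E10.5 was 0.58 (limma adjusted p = 0.00127), a call lost in 3 of 13 alternatives (adjusted p up to 0.216). All of these means lie far below 5. The fall with age was lost with quantile renormalization (-0.43, adjusted p = 0.0765), when only the adult arrays were fitted (adjusted p = 0.24), without the old adult mixed array (-0.45, adjusted p = 0.105), without the young adult mixed array (-0.48, adjusted p = 0.0911) and without the young adult female array (-0.51, adjusted p = 0.0504).

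Counted over the 12 probe sets and set beside all probe sets, the comparisons looked as follows. From E10.5 to E14.5, 5 were higher and 1 lower at an adjusted p of 0.05, where 11.1% of all probe sets were higher and 15.2% lower, and the median difference was 0.24 over the 12 and 0.09 over all. From E14.5 to E19.5, 1 (Adrb1) was higher and 1 (Erbb2) lower, beside 5.1% and 8.46% of all, with medians of 0.12 and 0.05. From E19.5 to young adult, 2 were higher and 4 lower, beside 13.6% and 15.5% of all, with medians of 0.08 and 0.04. From E10.5 to young adult, 7 were higher and 4 lower, beside 35.9% and 27.1% of all, with medians of 0.54 and 0.19. From young to old adult, 0 were higher and 3 lower, beside 3.83% and 3.13% of all, with medians of -0.35 and -0.02. In that comparison, limma gave 5 of the 12 an unadjusted p under 0.05, as it did 10398 of all 45101 probe sets. These comparisons share arrays of E14.5, E19.5, E10.5 and young adult, so they are not independent of each other.

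Under the limits of the study (adjusted p under 1e-05, more than 4-fold, a stage mean above 5), 1 of the 12 passed, Erbb2 from E10.5 to young adult, where 6.53% of all probe sets did. None passed in the other stage comparisons, where the shares of all probe sets were 0.49% (E14.5 minus E10.5), 0.224% (E19.5 minus E14.5), 1.45% (young adult minus E19.5) and 0.00665% (old minus young adult). At 2-fold in place of 4-fold, Adrb1 passed from E10.5 to E14.5 (limma adjusted p = 6.25e-06). Without any 1 array of these stages it did not (adjusted p 2.41e-05 to 0.00017). From E19.5 to young adult, Erbb2 (-1.36) and the second Adcy5 probe set (-1.58) passed at 2-fold, both lower. From E10.5 to young adult, Adra1a passed at 2-fold beside Erbb2, at 1.68, or 0.45 with the control level as a covariate. The plot of fold changes shows all 5 comparisons with their intervals.

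**Figure D3:**
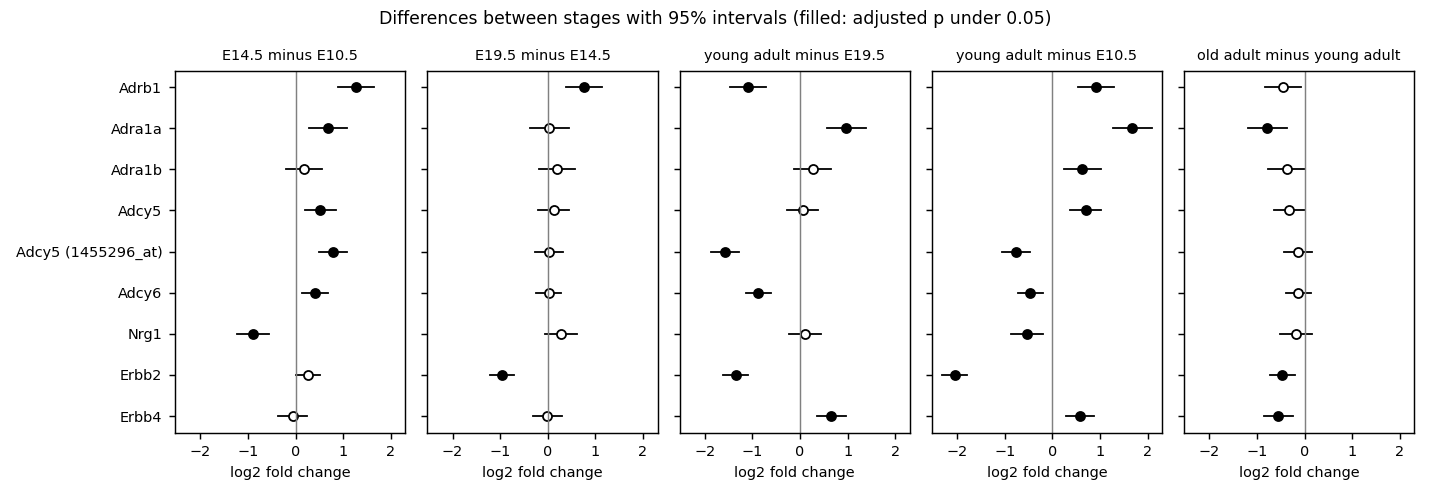
Log2 fold change (horizontal axis) with its 95% interval for the lead probe set of each gene and the second of Adcy5 (rows), in 5 comparisons of stages (panels); filled points passed an adjusted p of 0.05 in limma. Adrb1 was 1.27 and 0.75 higher over the 2 embryonic intervals and 1.10 lower in young adults than at E19.5, and Erbb2 was lower in each of the 4 comparisons that end at E19.5 or later.

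Male and female hearts were compared over 9 pairs of arrays of the same stage, from E13.5 to old adult, leaving out E12.5 as the methods do. By limma with stage as a block 0 of the 12 probe sets passed, where 0.0488% of all probe sets (22) did. An unadjusted p under 0.05 was found for 3518 of all 45101 probe sets and for 1 of the 12. That one was Adrb1, lower in the male array in 8 of 9 pairs, by 0.28 on average (SE 0.09, unadjusted p = 0.00622, adjusted p = 0.529). Its male minus female differences ranged from -0.64 at E17.5 and in old adults to 0.15 at E18.5. For the other lead probe sets the mean difference lay between -0.08 (Erbb4) and 0.18 (Adra1a).

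By Pearson's r over the 12 stage means, a description with stages that share the array scaling and, in part, the control level, the course most like that of Adrb1 was that of Gja1, the main gap junction protein of ventricular muscle (r = 0.973), followed by 5430416B10Rik (0.972). Closest to Erbb2 were Prrc2b (0.998) and Cdca2 (0.995), to Adcy6 Mrpl39 (0.991) and Polrmt (0.987), both of them genes of mitochondrial gene expression, and to Adra1a Crb3 and Cys1 (both 0.985). Phyh (0.972) and Tmem150a (0.968) were closest to Adcy5, Spopl (0.954) and 4832441B07Rik (0.947) to Nrg1, Large2 (0.898) and Klhdc4 (0.881) to Erbb4, and Edn3 (0.866) and Arid2 (0.863) to Adra1b. Among the 5 genes above 5, the lead courses of Adrb1 and Adcy5 correlated at 0.861, Adrb1 and Adcy6 at 0.763, and Adra1a and Erbb2 at -0.669.

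The rest of both pathways was read through lists of genes, each by its probe set with the highest mean. Counts are for young adult minus E10.5, in which 35.9% of all probe sets were higher and 27.1% lower. List genes were not refitted with a covariate or with an array left out. Median differences were 0.52 for the other receptors, 0.72 for the other cyclases, -0.80 for the G protein subunits, -0.09 for desensitisation and RGS proteins, -0.29 for cAMP effectors, 0.27 for the other ErbB receptors and ligands and -0.24 for shedding and adaptor proteins, beside 0.19 for all probe sets. Median centring on probe sets with a mean above 5 would add 0.53 to each of these differences. That turns the sign of the medians for cAMP effectors, desensitisation proteins and shedding proteins and of no single gene named below. Of 8 other adrenergic and muscarinic receptors with a probe set, 6 were higher and 0 lower, but 0 had a stage mean above 5. Of 8 other adenylyl cyclases, 4 were higher and 2 lower: Adcy7 by 2.34 (adjusted p = 2.25e-09) and Adcy9 by 1.96 (adjusted p = 9.97e-12) were higher, and Adcy1, a calmodulin-stimulated form, was lower by -1.53 (adjusted p = 8.4e-06).

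The G protein subunits moved mostly down, with 7 of 12 lower and 1 higher, led by Gnb5 (-1.40), the inhibitory subunit Gnai1 (-1.37) and Gnb1 (-1.21). Among 14 genes of receptor desensitisation and RGS proteins, which shorten G protein signals, 6 were higher and 3 lower. Rgs5 had the largest difference of all genes on these lists, 5.21 (adjusted p = 3.23e-18): its arrays read 5.59, 5.41 and 5.73 at E10.5, 8.39, 8.42 and 8.22 at E14.5, 9.82, 9.70 and 9.86 at E19.5, and 10.7 (female), 10.4 (male) and 11.2 (mixed) in young adults. Rgs5 also marks pericytes and smooth muscle cells, and of the 5 markers of smooth muscle here, Rgs5 among them, 2 were higher and 2 lower. In whole hearts, fewer cells of a type and less RNA per cell cannot be told apart. Rgs4 was 2.31 higher and the receptor kinase Grk3 -1.44 lower.

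Of 19 effectors of cyclic AMP and phosphodiesterases, 7 were higher and 9 lower. The cGMP-stimulated phosphodiesterase Pde2a was 2.83 higher (adjusted p = 8.52e-17) and the cAMP sensor Rapgef3 2.36 higher, and the regulatory subunit Prkar2b of protein kinase A was lower by -2.63 (adjusted p = 1.95e-07).

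Of 12 other ErbB receptors and ligands of the EGF family, 3 had a stage mean above 5, and 4 were higher and 1 lower. Erbb3, the neuregulin receptor of Schwann and endocardial cushion cells, was lower by -1.69 (adjusted p = 2.33e-10): E10.5 arrays read 6.88, 6.86 and 6.79 and young adult arrays 4.76 (female), 5.51 (male) and 5.19 (mixed). Of the 7 Schwann cell markers, Erbb3 among them, 4 were higher and 1, Erbb3 itself, lower. Their summed intensity ranged from 244 to 263 at E10.5 and from 231 to 258 in young adults. Erbb3 was the largest term of that sum at E10.5 (stage mean 6.84, against 5.15 in young adults). The sum therefore does not show how the other markers moved. The part of Schwann cells in the Erbb3 result was not tested. Egfr was 1.01 higher (adjusted p = 2.29e-07). Of 19 shedding and adaptor proteins, 4 were higher and 7 lower. The sheddase Adam19 was lower by -2.08, and Adam10 by -1.94, and the kinase Akt1 followed. The plot of both pathways shows all genes of these lists.

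**Figure D4:**
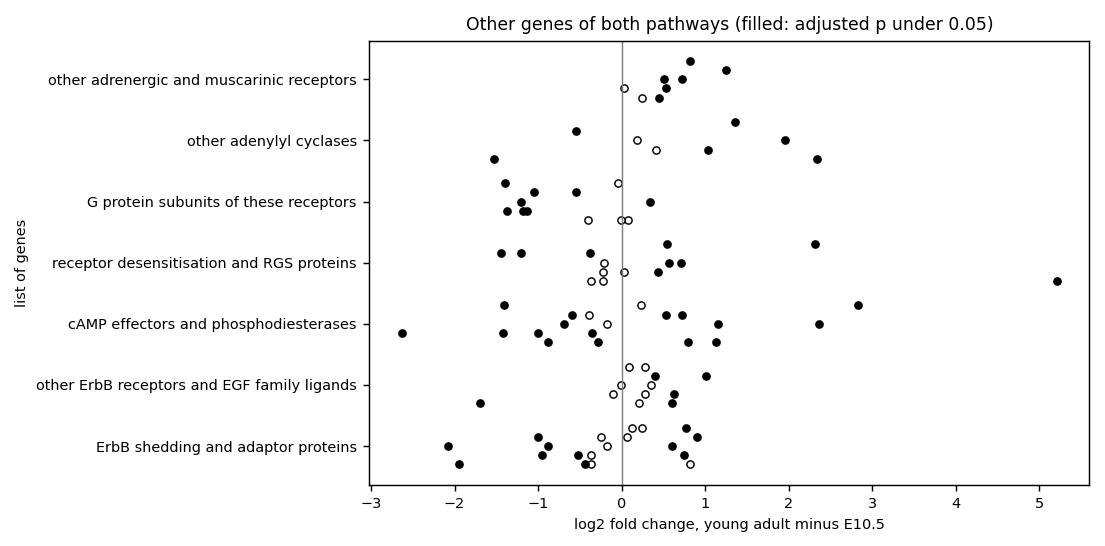
Log2 fold change of young adult minus E10.5 (horizontal axis) for the genes of 7 lists (rows); each point is 1 gene, filled where the adjusted p in limma was under 0.05, and the vertical offset within a row only separates points. G protein subunits lie mostly left of 0 (7 lower, 1 higher), and Rgs5 stands farthest right at 5.21. Median centring on probe sets with a mean above 5 would move every point right by 0.53.

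From young to old adult, where 3.83% of all probe sets were higher and 3.13% lower, the counts over these lists were 1 lower and 0 higher of the other receptors (Adrb3, below 5), 1 lower of the G protein subunits (Gnai1, -0.73, adjusted p = 0.0275), 2 higher of the cAMP effectors and 2 higher of the shedding and adaptor proteins, and 0 of the other cyclases, the desensitisation list and the other ErbB list. Errfi1, which binds and inhibits EGF receptor family kinases, was the largest of these, 2.60 higher (SE 0.40, 6.68 to 9.28, adjusted p = 0.000196). Its young adult arrays read 7.55 (female), 5.99 (male) and 6.52 (mixed), and its old adult arrays 8.0, 10.4 and 9.40, which did not overlap. The scaffold Akap12 was 1.3 higher (adjusted p = 0.00146), Adam10 0.79 (adjusted p = 0.0428) and Prkacb 0.75 (adjusted p = 0.0482). Gnai1 arrays overlapped, at 7.46 (female), 6.47 (male) and 6.49 (mixed) in young and 6.59, 6.11 and 5.52 in old adults. None of these list results was refitted with a covariate or with an array left out.

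Cell type markers also differed between the stages compared. From E10.5 to E14.5 (11.1% of all probe sets higher, 15.2% lower), 4 of 6 fibroblast markers were higher and 0 lower, with a median difference of 1.95, and 4 of 6 leukocyte markers were higher and 0 lower. In that interval 3 of 6 erythroid markers and 3 of 8 endothelial and endocardial markers were lower and 0 higher. From young to old adult (3.83% higher, 3.13% lower), 3 of 8 endothelial and endocardial markers were higher and 0 lower, with summed intensities from 1082 to 1207 in young and from 1688 to 2353 in old hearts. Summed intensity of the 7 atrial markers ranged from 7619 to 10290 in young and from 5626 to 22041 in old hearts, with 0 called. Erythroid markers, of which 4 of 6 were lower and 1 higher from E10.5 to young adult, had summed intensities from 17686 to 22990 at E10.5 and from 97.0 to 171 in young adults. The largest terms at E10.5 were the globins Hbb-y (mean 13.6, against 3.10 in young adults) and Hbb-bh1 (13.0 against 3.33). Alas2 stood at 5.68 and 6.34, so the sum is not a measure of red cells. Fibroblast markers, with 2 of 6 higher and 2 lower, summed to between 1928 and 2304 at E10.5 and between 7675 and 10959 in young adults. In the same comparison (35.9% of all probe sets higher, 27.1% lower), 6 of 6 leukocyte markers and 5 of 5 adipocyte markers were higher (3 and 2 of them with a stage mean above 5), and 2 of 3 ventricular markers, Irx4 and Hey2, were lower while Myl2 stood at 13.5 at E10.5 and 13.3 in young adults. Of 15 markers of autonomic neurons, whose transmitters act on these receptors, 4 had a stage mean above 5. The part of these cell types in the results above was not tested.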

How the data were processed

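Total RNA of mouse hearts was hybridized to 36 Affymetrix mouse genome arrays. The authors deposited log2 intensities made by robust multi-array average (RMA: background subtraction, quantile normalization, probe summary); the labels also name Affymetrix Expression Console and Partek 6.6. These values were used without further scaling. Symbols were updated through gene IDs (18342 of 20701 found in RefSeq, GRCm38.p6; 2227 probe sets changed); 0 columns were left out. All probe sets were fitted with the 12 stages as groups (limma 3.58.1, run in R 4.3.3) (prior degrees of freedom 6.96), with Benjamini-Hochberg adjustment within each comparison; male and female arrays were paired by stage. A gene's lead probe set has the highest mean over arrays. Named from each list were at most 3 called genes above 5 with the largest difference, and for each gene the 2 most alike courses. Genes and lists were chosen with earlier results of these data known. The fits were tested on simulated data. Depth has no meaning for arrays; 3 arrays per stage limit the precision, and p-values measure the spread between these arrays, some of which hold hearts of several animals. Sex labels did not pair arrays: deviations of arrays with the same label correlated between -0.58 and 0.60 (median 0.04).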

Additional observations from a re-analysis of the deposited data

How the results depend on the processing

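Over lead probe sets and stage comparisons, 266 of 310 values under an alternative to the whole fit and 206 of 240 with 1 array left out kept their direction and side of an adjusted p of 0.05, and 15 and 14 turned direction. Of the 12 probe sets, 11 passed for young adult minus E10.5, but 6 after quantile renormalization, 2 with the hybridization control level and 3 with the title prefix as a covariate. When probe sets below 5 were removed first, the 6 that remained all passed. The control level left 3 for E14.5 minus E10.5 (6 before) and 1 for old minus young adult (3 before). The title prefix left 1 for E19.5 minus E14.5 (2 before), and fitting only the adult arrays left 0 for old minus young adult. With the sex label as a replicate block, 0 of 12 passed the limits of the study for young adult minus E10.5 (1 without the block; Erbb2 -1.99), as after quantile renormalization (0), and the block changed no other call. No replicate block for the male and female pairs also gave 0. At 2-fold, 1 (E14.5 minus E10.5), 2 (young adult minus E19.5) and 2 (young adult minus E10.5) passed these limits. Shares of all probe sets under these alternatives, or with 1 array left out, are not given here. No change in these counts is therefore read as particular to these genes.

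With 1 array left out, calls ranged from 3 to 6 (E14.5 minus E10.5; 3 without the first E10.5 or the male E14.5 array), from 2 to 2 (E19.5 minus E14.5), from 6 to 7 (young adult minus E19.5), from 9 to 11 (young adult minus E10.5) and from 1 to 4 (old minus young adult; 1 without the young adult male or the old adult mixed array). For young adult minus E10.5, 0 to 1 passed the limits of the study.

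Of the differences that turned direction, 3 had passed before, all for young adult minus E10.5: Adcy5 (0.70), Nrg1 (-0.53) and Adcy6 (-0.46). After turning, only Adcy5 from E19.5 to young adult passed, as the mean of its 2 expressed probe sets (young adult minus E19.5, -0.76, adjusted p = 4.65e-06; minus E10.5, -0.029). Median centring gave Erbb4 0.14 (E14.5 minus E10.5) and 0.13 (E19.5 minus E14.5), and for young adult minus E10.5 Adcy6 0.067 and Nrg1 0.0015. The control level gave Adra1b -0.0080 (E14.5 minus E10.5), Adra1a -0.082 (E19.5 minus E14.5), Adcy5 -0.36 and Nrg1 -0.054 (young adult minus E19.5), and Adcy5 -0.24 (young adult minus E10.5) and 0.0070 (old minus young adult). The title prefix gave Adra1a -0.23, Adra1b -0.21 and Adcy6 -0.024 (E19.5 minus E14.5). With 1 array left out, ranges crossed 0 for Erbb4 from E10.5 to E14.5 (-0.15 to 0.082), for Adra1a (-0.12 to 0.24), Adcy6 (-0.084 to 0.16), Erbb4 (-0.11 to 0.057) and the second Adcy5 probe set (-0.048 to 0.18), all E19.5 minus E14.5, for Adcy5 (young adult minus E19.5, -0.047 to 0.14), and from young to old adult for Adcy6 (-0.28 to 0.0029) and the second Adcy5 probe set (-0.26 to 0.030). The causes were not tested. The alternatives for this second probe set were chosen after seeing the data. Genes below 5 could not be fitted when such probe sets were removed first.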
